A study of Mus musculus with 19 samples.

Results

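Fc gamma receptors are cell-surface proteins that bind the constant part of IgG antibodies. The genes described are Fcgr1, Fcgr3, Fcgr4 and Fcgr2b, with 2 partners, Fcer1g and Fcgrt. They were taken by name from the deposited expression table, which held all 6 among its 36682 genes. RNA was sequenced from dorsal root ganglia, which house the sensory neurons of the spinal nerves, of 19 male mice homozygous for the MaFIA transgene (macrophage Fas-induced apoptosis). In that strain a drug-dimerized Fas death domain is driven by the Csf1r promoter, so that AP20187 is meant to kill macrophages and other Csf1r-expressing cells. Every group, controls included, carried the transgene.

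The 4 groups crossed surgery with drug. In DMM mice the medial meniscus of a knee had been destabilized surgically to induce osteoarthritis, and tissue was studied 8 weeks later. These mice received AP20187 (n = 5, mice 58 to 62) or vehicle (n = 5, mice 32, 33, 34, 63 and 64). Naive mice, age-matched and without surgery, received AP20187 (n = 4, mice 1, 3, 4 and 5) or vehicle (n = 5, mice 1 to 5). Injections were intraperitoneal, once daily for 5 days. The lumbar ganglia L3 to L5 on the operated side were pooled within a mouse. The samples carry mouse numbers, but the labels do not tie a number to a cage, a day or a batch.

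The activating receptors encoded by Fcgr1, Fcgr3 and Fcgr4 bind IgG on macrophages, monocytes and neutrophils. They signal through Fcer1g, the shared FcR gamma chain, whose immunoreceptor tyrosine-based activation motif is phosphorylated by Src-family kinases and then recruits the kinase Syk. Fcgr2b, the inhibitory receptor, carries an inhibitory motif that recruits the phosphatase encoded by Inpp5d, and it is the Fc gamma receptor of B cells. Fcgrt encodes the neonatal Fc receptor, which pairs with beta-2 microglobulin and recycles IgG inside endothelial and myeloid cells rather than triggering phagocytosis. In sensory ganglia, Fc gamma receptors are known as places where immune complexes can act on macrophages and on neurons.

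The activating receptors, the gamma chain and the inhibitory receptor lie close together on chromosome 1, except for Fcgr1. In the coordinates of the files, whose build is named GRCm39 in the submitters' processing notes, Fcgr2b (ENSMUSG00000026656) is at chr1:170786186-170804116 on the minus strand and Fcgr4 (ENSMUSG00000059089) at chr1:170846489-170857330 on the plus strand. Next to them are Fcgr3 (ENSMUSG00000059498) at chr1:170878743-170892504 and Fcer1g (ENSMUSG00000058715) at chr1:171057141-171061934, both on the minus strand. Fcgr1 (ENSMUSG00000015947) is at chr3:96190225-96201285 and Fcgrt (ENSMUSG00000003420) at chr7:44742414-44753275, both on the minus strand. Values are totals over a whole gene, exons of all its transcripts together.

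The start-proximal sequences are shown because most of these genes, unlike Fcgrt, moved together between groups. Each is the 100 bases before a transcription start, 5′ to 3′ on the strand of the gene, from the RefSeq promoter table (build GRCm38.p6, a different build from the files). Capitals mark GAGGAAG or its reverse complement CTTCCTC, a string found in sites for the myeloid and B-cell transcription factor PU.1, searched on both strands. The motif was chosen with these sequences in view. The windows are, in the order shown, chr3:96293970-96294069, chr1:171059395-171059494, chr1:171018826-171018925, chr1:171234350-171234449, chr1:170976072-170976171 and chr7:45103823-45103922.
Fcgr1: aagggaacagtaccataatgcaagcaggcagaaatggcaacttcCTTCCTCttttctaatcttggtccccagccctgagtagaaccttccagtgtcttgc
Fcgr3: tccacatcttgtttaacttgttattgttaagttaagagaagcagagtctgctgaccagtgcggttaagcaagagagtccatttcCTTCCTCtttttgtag
Fcgr4: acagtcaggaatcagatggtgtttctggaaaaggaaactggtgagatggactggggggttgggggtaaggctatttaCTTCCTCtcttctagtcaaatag
Fcer1g: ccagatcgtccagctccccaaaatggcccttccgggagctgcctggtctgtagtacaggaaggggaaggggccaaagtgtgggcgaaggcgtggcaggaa
Fcgr2b: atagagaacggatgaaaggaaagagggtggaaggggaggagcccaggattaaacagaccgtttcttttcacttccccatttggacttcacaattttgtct
Fcgrt: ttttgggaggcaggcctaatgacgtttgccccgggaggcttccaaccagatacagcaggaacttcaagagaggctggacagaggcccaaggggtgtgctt

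The 3 activating receptors each held the motif, in its CTTCCTC orientation, and the other 3 windows did not. The shorter string GGAA, which the motif contains, does occur in those other 3 windows. Counting back from the start, its first base was at position -56 in Fcgr1, -16 in Fcgr3 and -23 in Fcgr4. The table lists a further start for Fcgr3, from which the motif is at -7. Of all 32851 windows of this length in the table, 4.72% held the motif. Over the 250 bases before a start the share was 10.6%, and the same 3 genes held it. A match describes these letters and does not show binding.

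Library totals ran from 60984830 to 74691396 counts. Levels are given as CPM, counts scaled to the size of each library after TMM normalization, and fold changes and tests are those of edgeR's quasi-likelihood test with Benjamini-Hochberg adjustment over 22778 tested genes, with an adjusted p under 0.05 as the threshold. All 6 genes passed the low-count filter. None of 12 macrophage markers passed as lower with the drug. Their summed level was 269 to 1080 CPM in DMM with AP20187 and 194 to 668 in DMM with vehicle, and in naive mice 501 to 842 with AP20187 and 109 to 535 with vehicle. Csf1r, the receptor whose promoter drives the transgene, had a log2 fold change of -0.02 in DMM (adjusted p = 0.982) and 0.45 in naive mice (adjusted p = 0.554). The sensory neuron markers (Prph, Avil, Isl1 and 3 others) summed to 418 to 1820 CPM with AP20187 and 1370 to 3760 with vehicle in DMM mice, and to 572 to 2510 and 2490 to 3950 in naive mice. Of these 6 markers 3 fell with the drug in DMM mice, with a list median log2 fold change of -1.33, and 0 passed in naive mice (-0.84). That DMM count was 5 without vehicle mouse 64. Of 4 Schwann cell markers 2 fell in DMM mice, 0 without drug-treated mouse 58 or 62 or vehicle mouse 32 and 4 without drug-treated mouse 61, and 0 passed in naive mice. Of all genes, 12.4% passed as lower in DMM mice and 2.57% in naive mice. The part of these shifts in the receptor values was not tested. The 4 naive mice with AP20187 had skeletal muscle markers at 1390 to 2100 CPM, against 9.93 to 383 CPM in naive mice with vehicle, and 1 DMM mouse with vehicle had 1590 CPM.

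Macrophage depletion was the purpose of the drug, so the first comparison is AP20187 against vehicle. The receptors were higher, not lower, with AP20187. In naive mice 5 of the 6 genes rose, all but Fcgrt, by 3.65-fold to 8.14-fold. In DMM mice 4 rose, all but Fcgr1 and Fcgrt, by 3.70-fold to 6.24-fold. Of all tested genes, 11.2% passed in naive mice, 8.61% as higher, and 23.8% passed in DMM mice, 11.3% as higher. The median log2 fold change of the 6 genes was 2.32 in naive mice and 1.93 in DMM mice, against -0.07 and -0.10 over all tested genes. In bulk tissue, more cells of a type and more RNA per cell cannot be told apart.

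**Figure D1:**
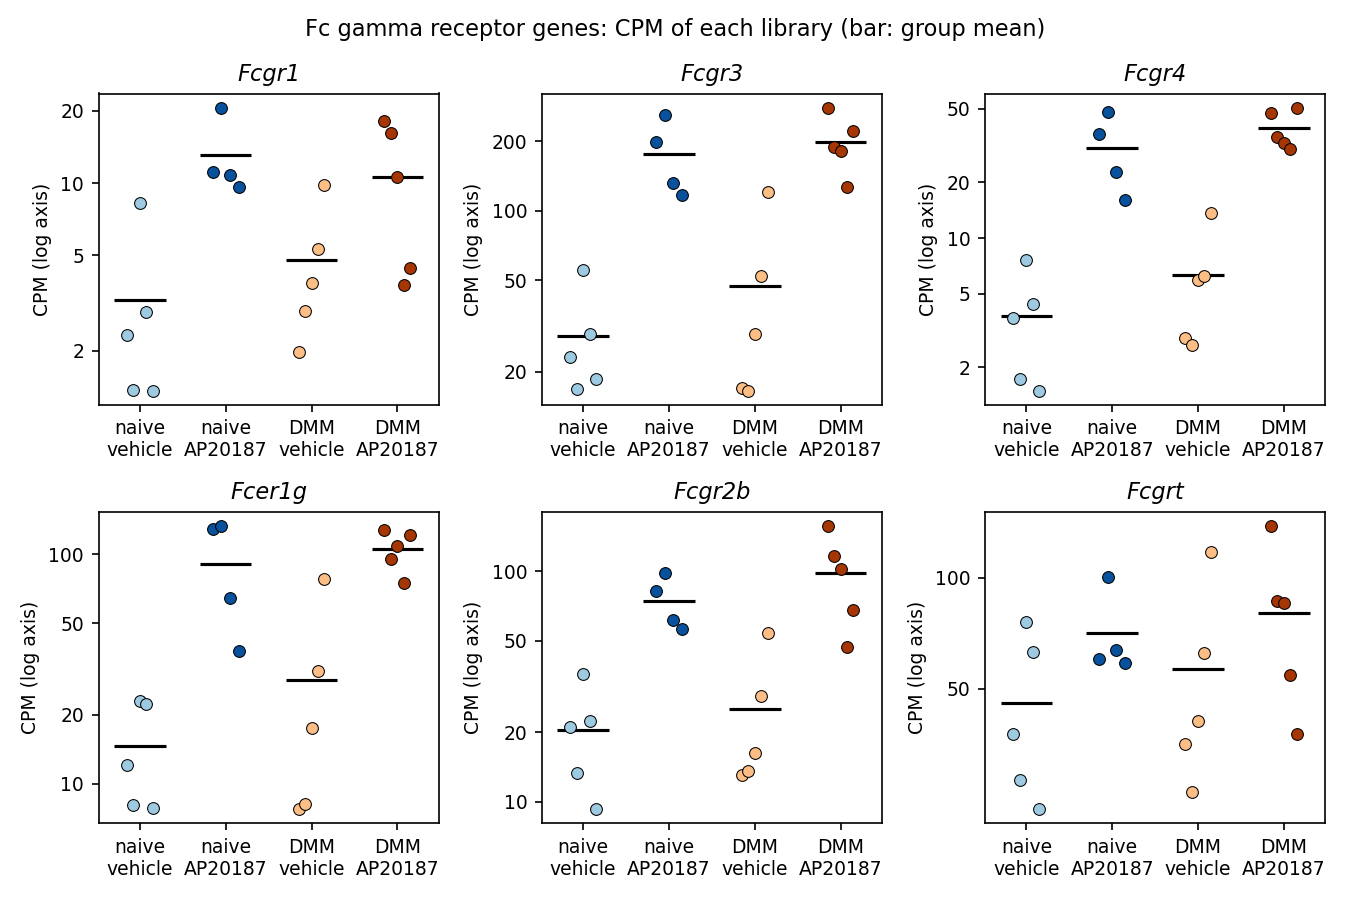
CPM of each of the 6 genes (log axis) in each library, by group, with a bar at the group mean. Fcgr3 and Fcgr4 of all mice with AP20187 lie above those of all vehicle mice with the same surgery, while the Fcgrt groups overlap.

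Fcgr3 encodes the low-affinity activating receptor that is the main activating Fc gamma receptor of neutrophils and macrophages in mice. It was at 23.1, 16.8, 55.2, 29.2 and 18.6 CPM in naive mice with vehicle (mice 1 to 5). With AP20187 it was at 199, 259.6, 132 and 116 CPM (mice 1, 3, 4 and 5). Every drug-treated naive mouse was above every vehicle mouse, and the log2 fold change was 2.63 (SE 0.51, adjusted p = 0.00381). In DMM mice with vehicle it was at 17.0, 16.6, 29.2, 52.2 and 119.9 CPM (mice 32, 33, 34, 63 and 64), and with AP20187 at 279.8, 188, 181, 127 and 221 CPM (mice 58 to 62). The DMM groups did not overlap either, although mouse 64 with vehicle came close to mouse 61 with AP20187. The log2 fold change was 2.08 (SE 0.49, adjusted p = 0.00635), and 2.79 without mouse 64.

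Fcgr4 encodes an activating receptor of intermediate affinity carried by neutrophils, monocytes and some macrophages. In naive mice it was at 3.68, 1.73, 7.60, 4.37 and 1.497 CPM with vehicle and at 36.4, 47.8, 22.8 and 16.0 CPM with AP20187. Its log2 fold change there was 3.02 (SE 0.51, adjusted p = 0.00153), the largest of the 6 genes in the naive comparison. In DMM mice the levels were 2.88, 2.64, 5.95, 6.26 and 13.7 CPM with vehicle and 47.3, 35.1, 32.8, 30.4 and 50.7 CPM with AP20187. The groups did not overlap, and the log2 fold change was 2.64 (SE 0.48, adjusted p = 0.00145), again the largest of the 6. Groups that do not overlap with the drug group higher were found for 9.39% of all tested genes in naive mice and 8.71% in DMM mice. An overlapping gene, Gm26110, lies on the same strand within Fcgr4 and had at most 6 counts in a library.

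Fcgr1 encodes the high-affinity receptor, which binds monomeric IgG and is a marker used to define tissue macrophages. It was at 2.31, 1.37, 8.28, 2.90 and 1.36 CPM in naive mice with vehicle and 11.1, 20.6, 10.8 and 9.59 CPM with AP20187. The 4 drug-treated mice were all above the 5 vehicle mice, mouse 3 being highest in both groups. Its log2 fold change was 2.00 (SE 0.58, adjusted p = 0.0334), but single libraries moved it. Without vehicle mouse 3 it was 2.71 (adjusted p = 0.00729). The call was lost without any 1 of naive AP20187 mice 1 and 3 or naive vehicle mice 1, 2, 4 and 5, with an adjusted p of 0.0537 to 0.12. It was also lost in 2 of the 12 other alternatives, where the adjusted p reached 0.0603.

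In DMM mice Fcgr1 did not pass edgeR's test. The levels were 1.97, 2.94, 3.84, 5.32 and 9.82 CPM with vehicle and 18.2, 16.2, 10.7, 3.76 and 4.42 CPM with AP20187. Mice 61 and 62 had vehicle-like levels of Fcgr1 although their Fcgr3 and Fcgr4 lay above every DMM mouse with vehicle. The log2 fold change was 1.15 (95% interval 0.01 to 2.30, adjusted p = 0.132), and without vehicle mouse 64 it was 1.60 (adjusted p = 0.0361). Fcgr1 also passed with limma voom (1.65, adjusted p = 0.00364), which called all 6 genes in DMM mice and 46.9% of all genes, and against vehicle mice 32 to 34 alone (1.86, adjusted p = 0.0297). The summed macrophage markers of mice 61 and 62 were 322 and 269 CPM, against 793 to 1080 CPM in mice 58 to 60. Their part in the Fcgr1 values was not tested.

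Fcer1g, the gamma chain on which all 3 activating receptors depend, was at 12.1, 8.10, 23.0, 22.2 and 7.80 CPM in naive mice with vehicle. With AP20187 it was at 129, 132, 64.4 and 37.8 CPM. The groups did not overlap, the lowest drug-treated mouse being mouse 5, and the log2 fold change was 2.63 (SE 0.58, adjusted p = 0.00815). In DMM mice it was at 7.76, 8.13, 17.5, 30.9 and 77.9 CPM with vehicle and at 127, 94.9, 108, 74.8 and 121 CPM with AP20187. Vehicle mouse 64 was above drug-treated mouse 61, so these groups overlapped. The log2 fold change was 1.89 (SE 0.55, adjusted p = 0.0203). Leaving out vehicle mouse 34 ended the call (log2 fold change 1.76, adjusted p = 0.0505), while leaving out mouse 64 raised the log2 fold change to 2.71.

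Fcgr2b, the inhibitory receptor, rose with the activating ones. In naive mice it was at 21.0, 13.3, 35.9, 22.5 and 9.30 CPM with vehicle and at 82.4, 97.9, 61.5 and 56.1 CPM with AP20187, without overlap. The log2 fold change was 1.87 (SE 0.44, adjusted p = 0.0125). In DMM mice the levels were 13, 13.6, 16.3, 28.8 and 53.8 CPM with vehicle and 156.6, 116.6, 102, 46.8 and 67.8 CPM with AP20187. Only drug-treated mouse 61 fell below vehicle mouse 64, and the log2 fold change was 1.96 (SE 0.43, adjusted p = 0.00444). It was 2.45 without mouse 64. B cells carry this receptor too, and all 5 B-cell markers fell with the drug in both comparisons. The summed level of the 5 was 10.6 to 140.0 CPM in DMM with vehicle and 2.28 to 8.75 with AP20187, and in naive mice 21.0 to 62.5 with vehicle and 2.81 to 6.18 with AP20187. In naive mice 3 of the 5 markers passed without drug-treated mouse 1 or 3. The part of B cells in the Fcgr2b values was not tested.

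Fcgrt, the neonatal receptor, did not pass in either comparison. In naive mice it was at 37.6, 28.2, 75.9, 62.8 and 23.6 CPM with vehicle and 60.0, 100.3, 63.6 and 58.8 CPM with AP20187. Mice 3 and 4 with vehicle lay inside the range of the drug-treated mice, and the log2 fold change was 0.63 (95% interval -0.28 to 1.54, adjusted p = 0.338). In DMM mice the levels were 35.3, 26.3, 40.7, 62.3 and 116.9 CPM with vehicle and 137.8, 86.2, 85.4, 54.5 and 37.6 CPM with AP20187. These groups overlapped over most of their range, and the log2 fold change was 0.51 (95% interval -0.35 to 1.37, adjusted p = 0.397). With limma voom and sample weights Fcgrt passed there (log2 fold change 1.04, adjusted p = 0.00714). B2m, the partner of the neonatal receptor, had log2 fold changes of 0.33 in DMM mice (adjusted p = 0.508) and 0.57 in naive mice (adjusted p = 0.283). Endothelial markers, of cells that carry this receptor, summed to 67.1 to 146 CPM in DMM with vehicle and 158 to 294 with AP20187, and in naive mice to 63.9 to 306 with vehicle and 210 to 477 with AP20187. Their part in the Fcgrt values was not tested.

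**Figure D2:**
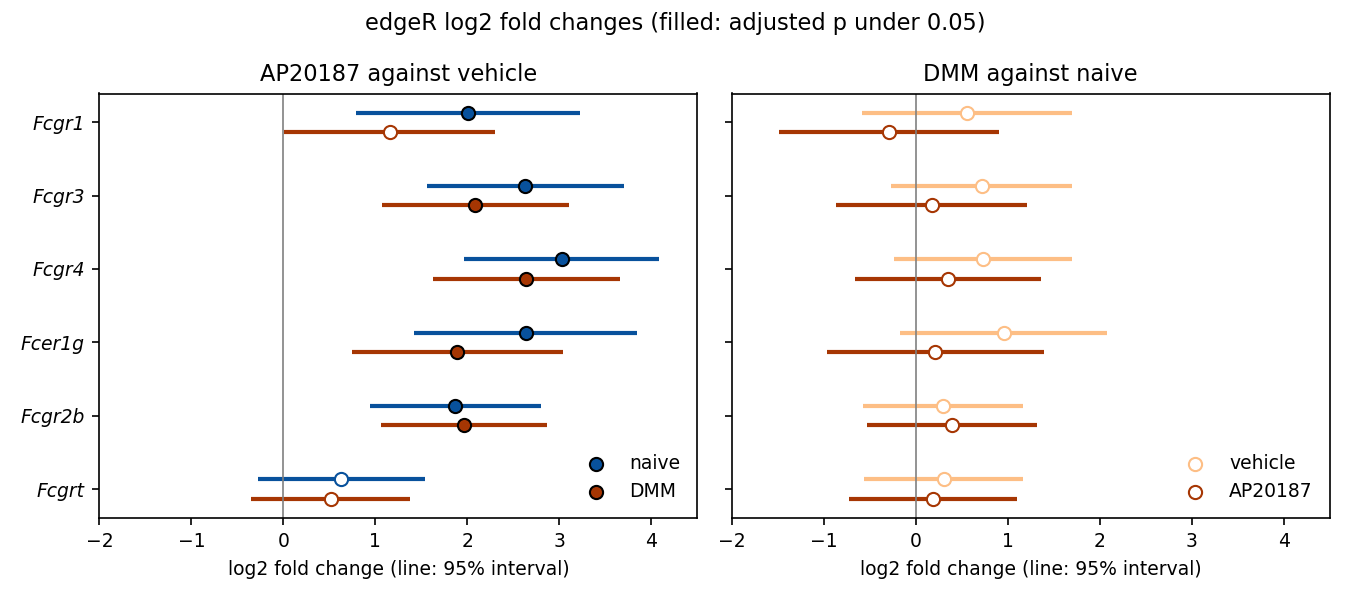
edgeR log2 fold changes of the 6 genes with 95% intervals, for AP20187 against vehicle (left) and DMM against naive (right), with filled points for an adjusted p under 0.05. All 4 filled points of DMM mice and all 5 of naive mice lie right of 0 on the left, and no point is filled on the right.

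The DMM comparison depended on which vehicle mice were used. The vehicle mice numbered 63 and 64 were above those numbered 32 to 34 for every one of the 6 genes, mouse 64 by 4.14-fold (Fcgr2b) to 10-fold (Fcer1g) over the lowest. Against mice 63 and 64 alone, 0 of the 6 genes passed, where 4.73% of all genes did. The log2 fold changes were then 1.97 for Fcgr4 (adjusted p = 0.0668), 1.26 for Fcgr2b (0.175), 1.21 for Fcgr3 (0.169), 0.95 for Fcer1g (0.349), 0.52 for Fcgr1 (0.768) and -0.14 for Fcgrt (0.929). Against mice 32 to 34 alone, all 6 passed, where 36.3% of all genes did. Numbers 63 and 64 follow directly on those of the drug-treated mice, 58 to 62, and the labels do not say what a number series stands for. Leaving out vehicle mouse 64 alone gave 5 genes, where 34% of all genes passed, and leaving out mouse 34 gave 3, where 17.2% did. Against mice 63 and 64 alone all 5 granulocyte precursor markers still passed as higher and all 5 B-cell markers as lower. Calls fell from 5 to 2 for neutrophil markers, from 4 to 1 for rising monocyte markers and from 2 to 0 for macrophage markers. They fell from 3 to 0 for endothelial markers and from 3 to 0 for sensory neuron markers. The endothelial count was 1 without any single one of drug-treated mice 58 and 62 or vehicle mice 32, 33, 34 and 63.

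Marker genes of marrow-derived myeloid cells moved with the receptors. Of all genes 11.3% rose and 12.4% fell in DMM mice, and 8.61% rose and 2.57% fell in naive mice. Of 7 monocyte markers 4 rose and 2 fell in DMM mice, and 3 rose and 1 fell in naive mice. They summed to 3210 to 8740 CPM in DMM with AP20187 and 138 to 1410 with vehicle, and in naive mice to 1600 to 4940 with AP20187 and 218 to 602 with vehicle. Of 9 neutrophil markers 5 rose in DMM and 6 in naive mice. S100a8, S100a9, Cxcr2, Ngp and Ltf rose in both and Camp in naive mice, while Ly6g, Mmp8 and Retnlg passed in neither. Whether these values come from mature or precursor neutrophils was not tested. The sum of the 9 ran from 14500 to 24400 CPM in DMM with AP20187 against 380 to 7400 with vehicle. In naive mice it ran from 6800 to 24300 against 799 to 2170. All 5 granulocyte precursor markers (Mpo, Elane, Prtn3, Ctsg and Ms4a3) rose in both comparisons, to a summed 1220 to 2630 CPM in DMM and 319 to 1690 in naive mice from 30.3 to 404 and 45.6 to 115. Not every marker followed: Ly6g, a surface marker of neutrophils, had log2 fold changes of -0.20 in DMM (adjusted p = 0.847) and 0.57 in naive mice (adjusted p = 0.553). Ccr2, the chemokine receptor of inflammatory monocytes, fell by 2.59 on the log2 scale in DMM (adjusted p = 0.00426) and by 2.05 in naive mice (adjusted p = 0.0342). The naive fall lost its call without any 1 of drug-treated mice 1, 4 and 5 or vehicle mice 1, 3 and 4 (adjusted p up to 0.0881). Of the monocyte markers in DMM mice, 2 rose without drug-treated mouse 58 or vehicle mouse 33. No marker of these lists was at 0 in all libraries of a group. The part of these cells in the receptor values was not tested.

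**Figure D3:**
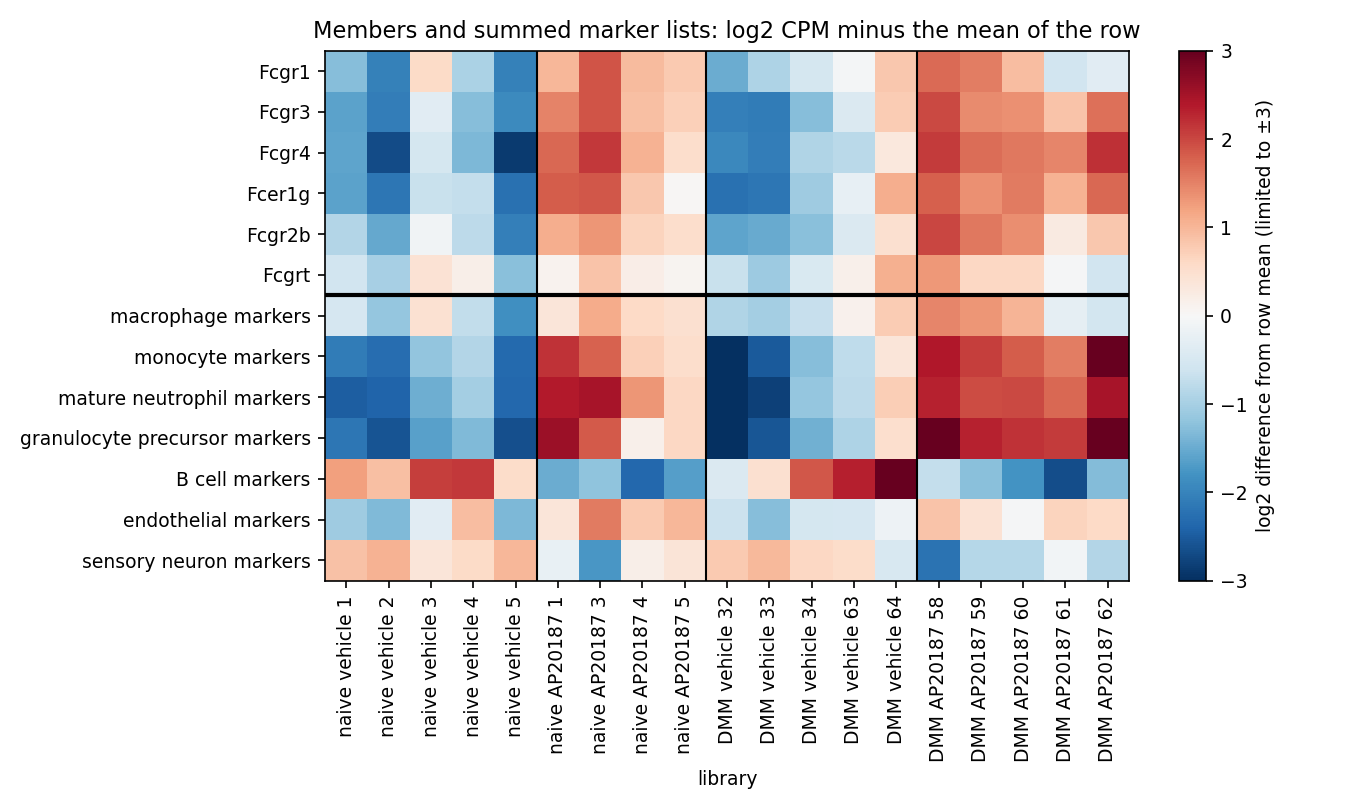
log2 CPM of each gene and of each summed marker list (rows), minus the mean of the row, in each of the 19 libraries (columns, by group), with red above and blue below the row mean. The rows of Fcgr3, Fcgr4, Fcer1g and Fcgr2b are red in nearly all libraries with AP20187, like the monocyte, neutrophil and precursor rows, and vehicle mouse 64 is red in all 6 gene rows.

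The 12 macrophage markers had median log2 fold changes of 1.06 in DMM and 1.38 in naive mice. Of the 12, Mrc1 and Siglec1 passed in DMM mice and Cd68, C1qb, Aif1 and Siglec1 in naive mice, all higher, where 11.3% and 8.61% of all genes passed as higher. The DMM count was 7 without vehicle mouse 64, where 34% of all genes passed in either direction, and 0 without drug-treated mouse 58 (14.2%) or 59 (17.4%). In naive mice it was 8 without vehicle mouse 3 (10.6%) and 0 without drug-treated mouse 3 (4.24%). To show the receptors relative to a macrophage gene, each was divided by Csf1r in the same library. The log2 ratio of Fcgr3 to Csf1r averaged -0.78 (-1.14 to -0.05) in naive mice with vehicle and 1.29 (0.88 to 1.78) with AP20187. In DMM mice it averaged -0.75 (-0.99 to -0.29) with vehicle and 1.67 (0.86 to 2.85) with AP20187. Neither pair overlapped, and the same held for Fcgr4, Fcgr1, Fcer1g and Fcgr2b over Csf1r. Of all tested genes, 3.04% were higher relative to Csf1r without overlap in naive mice and 5.16% in DMM mice. Relative to other macrophage genes, these 5 genes changed less than relative to Csf1r. Fcgr3 and Fcgr4 were also higher without overlap relative to Adgre1, Cd68 and the sum of the 12 markers, and Fcgr2b relative to Adgre1 and the marker sum. The shares of all genes higher without overlap in DMM and naive mice were 1.91% and 1.1% relative to Adgre1, 2.3% and 0.795% relative to Cd68, and 1.81% and 1.28% relative to the marker sum. Fcgr1 relative to Cd68 changed by -0.15 on the log2 scale in DMM and 0.25 in naive mice, with overlap in both. Relative to Adgre1 it changed by 0.37 in DMM mice, with overlap, and by 0.77 in naive mice, without overlap. Relative to the sum of the 12 markers Fcgr1 changed by 0.16 in DMM mice, with overlap, and by 0.90 in naive mice, without overlap. Fcgr2b relative to Cd68 changed by 0.83 in DMM mice and by -0.07 in naive mice, with overlap in naive mice. In DMM mice its lowest value with AP20187 and its highest with vehicle both rounded to 1.2. Fcer1g overlapped relative to Adgre1 and to the marker sum in both comparisons, and relative to Cd68 in naive mice.

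The neonatal receptor was set against the same genes. Its log2 ratio to Csf1r averaged -0.11 with vehicle and 0.01 with AP20187 in naive mice, and -0.27 and 0.27 in DMM mice, with overlapping groups. Relative to the sum of the 12 macrophage markers it changed by -0.35 in DMM mice, with overlap, and by -0.66 in naive mice, without overlap, as 23.8% of all genes were lower there. Relative to Cd68 it changed by -0.66 in DMM mice, with overlap, and by -1.31 in naive mice, without overlap, as 64.7% of all genes were lower. Relative to Adgre1 it changed by -0.14 and -0.78, with overlap in both. Relative to Fcgr2b it fell from 1.17 to -0.08 in naive mice and from 1.19 to -0.30 in DMM mice, without overlap. Of all genes, 63.1% in naive and 24.8% in DMM mice were lower relative to Fcgr2b without overlap, so neither fall sets Fcgrt apart. The gamma chain moved with Fcgr3. The log2 ratio of Fcer1g to Fcgr3 averaged -0.98 with vehicle and -1.06 with AP20187 in naive mice, and -0.86 and -0.90 in DMM mice.

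Fcgr1, the high-affinity receptor, was also set against the inhibitory receptor. In DMM mice its log2 ratio to Fcgr2b was -2.38 on average with vehicle (-2.72 to -2.09) and -3.36 with AP20187 (-3.94 to -2.85), without overlap, as for the 24.8% of all genes given above. In naive mice the averages were -2.86 with vehicle and -2.55 with AP20187, and the groups overlapped. Whether the ratio responds differently in DMM and naive mice was not tested.

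**Figure D4:**
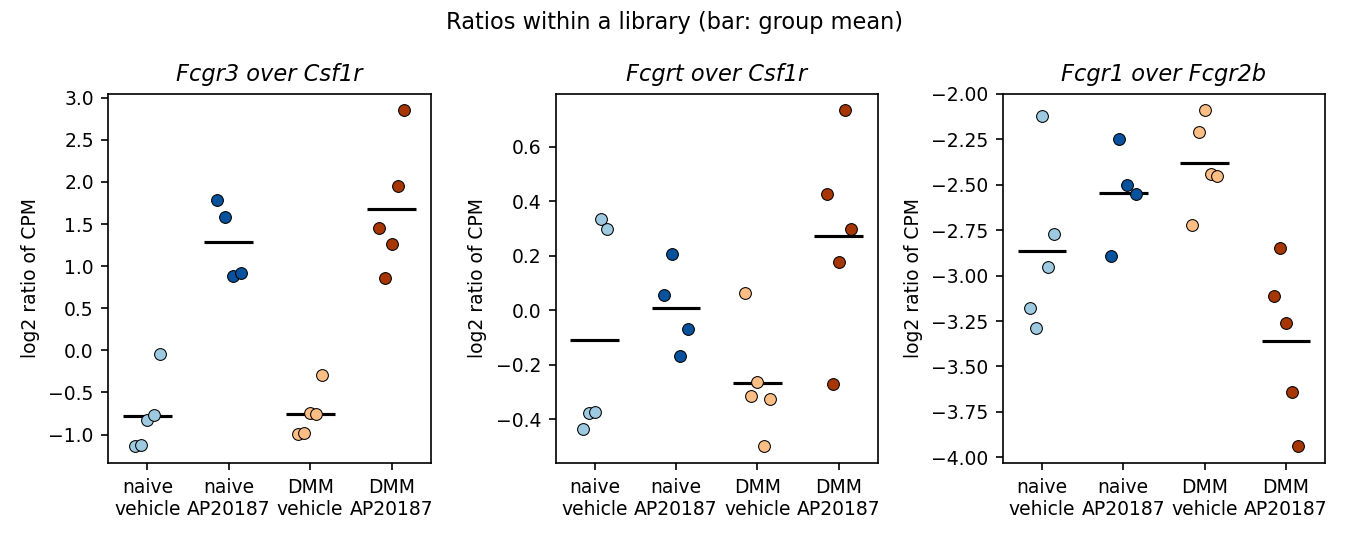
log2 ratios of CPM within each library for Fcgr3 over Csf1r, Fcgrt over Csf1r and Fcgr1 over Fcgr2b, by group, with a bar at the group mean. Fcgr3 over Csf1r is higher with AP20187 without overlap in naive and in DMM mice, the Fcgrt groups overlap, and Fcgr1 over Fcgr2b is lower with AP20187 without overlap in DMM mice.

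Levels can be compared between genes only per length, for which the deposited FPKM were used. Fcgr1 was the lowest of the 6 in all 19 libraries, at 0.50 to 7.27 FPKM. In naive mice with vehicle Fcgrt was the highest in all 5 libraries, averaging 21.3 ± 11 FPKM (SD, n = 5), with Fcer1g at 16.4 ± 8.62 and Fcgr3 at 16.2 ± 9.22, differences smaller than the spread. With AP20187 in naive mice Fcer1g averaged 87.6 ± 42.0 FPKM (SD, n = 4), Fcgr3 86.5 ± 28.5, Fcgrt 28.8 ± 7.23, Fcgr4 20.7 ± 8.71 and Fcgr2b 11 ± 2.33. Fcer1g or Fcgr3 headed the order in all 9 libraries with AP20187. DMM mice with vehicle were mixed: Fcgrt led in mice 32 and 33 and Fcer1g in mice 34, 63 and 64.

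The balance of activating to inhibitory receptors was taken as the summed FPKM of Fcgr1, Fcgr3 and Fcgr4 over that of Fcgr2b. In naive mice it was 4.73, 5.03, 6.62, 5.53 and 7.76 with vehicle and 10.4, 11.6, 9.26 and 8.61 with AP20187, without overlap. The share of all genes higher relative to Fcgr2b without overlap was not counted, so whether this shift is unusual is not known. In DMM mice it was 5.74, 5.44, 8.18, 7.46 and 9.02 with vehicle and 7.61, 7.08, 7.65, 12.2 and 14.5 with AP20187, and the groups overlapped. Fcgr3 made up 63.1% to 76.4% of the summed FPKM of the 4 receptors in every library. Between Fcgr2b and Fcgr3, reads may be split uncertainly: 166 of the 1733 distinct 50-base words of the Fcgr3 transcripts (9.58%) also occur in Fcgr2b, where they are 2.92% of 5685. No other pair of the 6 genes shared such a word, and 83 words of Fcgr2b (1.46%) also occur in genes outside the 6. How the authors' counting treated reads of this kind is not given in the sources used here.

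The second question of the design is whether osteoarthritis surgery changed these genes. With vehicle, 0 of the 6 genes passed edgeR's test of DMM against naive, and of all tested genes 0% passed. None had an unadjusted p under 0.05, and DESeq2 and limma voom called none of the 6. The log2 fold changes ran from 0.30 for Fcgr2b (95% interval -0.57 to 1.17) and 0.30 for Fcgrt (-0.56 to 1.16) through 0.56 for Fcgr1, 0.72 for Fcgr3 and 0.74 for Fcgr4 to 0.96 for Fcer1g (-0.16 to 2.08), with an adjusted p of 1 for each. With mice 63 and 64 as the only DMM mice, Fcer1g passed (log2 fold change 1.95, adjusted p = 0.0485), where 2.21% of all genes did, and with mice 32 to 34 only it was -0.40. Without vehicle mouse 64 the values of Fcgr2b and Fcgrt were -0.18 and -0.15. With single libraries left out, Fcgr1 ran from 0.12 to 1.27, Fcgr3 from 0.01 to 1.10, Fcgr4 from 0.23 to 1.16 and Fcer1g from 0.14 to 1.20.

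With AP20187, DMM and naive mice also did not differ for these genes by the test. Again 0 of 6 passed, where 0.702% of all genes did, and none had an unadjusted p under 0.05 or was called by DESeq2 or limma voom. The log2 fold changes ran from -0.29 for Fcgr1 (95% interval -1.49 to 0.90) to 0.40 for Fcgr2b (-0.53 to 1.32). The lowest end of the 6 intervals was that of Fcgr1, and the highest that of Fcer1g (-0.97 to 1.39). For each gene, differences inside its own interval remain compatible with these numbers of mice.

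The drug effect was also compared between DMM and naive mice, as the interaction. None of the 6 genes passed (0.114% of all genes did), none had an unadjusted p under 0.05, and DESeq2 and limma voom called none. The difference of log2 fold changes, DMM minus naive, was -0.85 for Fcgr1 (95% interval -2.50 to 0.80, adjusted p = 0.906), -0.74 for Fcer1g (-2.36 to 0.87), -0.54 for Fcgr3 (-1.97 to 0.88), -0.38 for Fcgr4 (-1.78 to 1.01), -0.12 for Fcgrt (-1.37 to 1.13) and 0.10 for Fcgr2b (-1.17 to 1.36). So Fcgr1 passing in naive mice and not in DMM mice was not shown to be a difference between them.

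Downstream of the receptors act signalling kinases and adaptors. Of 16 such genes, 12 rose and 1 fell in DMM mice, and 8 rose and 1 fell in naive mice, with median log2 fold changes of 1.66 and 1.52. The shares of all genes that rose or fell, given with the monocyte markers, are the background of this and the following gene lists. Fgr, a Src-family kinase of myeloid cells, rose by 2.66 (adjusted p = 0.00417) and 2.64 (adjusted p = 0.00889), and the exchange factor Vav1 by 2.43 and 2.45. The phosphoinositide kinase subunit Pik3cd rose in DMM mice (0.80, adjusted p = 0.0037), and the adaptor Lcp2 by 2.13 in naive mice (adjusted p = 0.00692). Syk, named for its role at the gamma chain, had log2 fold changes of 1.56 in DMM (adjusted p = 0.0232) and 1.32 in naive mice (adjusted p = 0.0828). The gene that fell was Prkcd, a protein kinase C, by 0.57 and 0.65. Against vehicle mice 63 and 64 alone, 1 of the 16 rose in DMM mice, where 4.73% of all genes passed in either direction.

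Of 10 genes for inhibitory phosphatases and adaptors, 6 rose in DMM mice and 4 in naive mice, and 0 fell. Pag1, the membrane anchor of the Src-inhibiting kinase Csk, rose by 1.65 in DMM (adjusted p = 0.000158) and by 0.99 in naive mice (adjusted p = 0.0115). The adaptor Dok2 rose by 2.17 and 2.27, and the phosphatase Ptpn6 by 1.89 and 2.01. Cbl, a ubiquitin ligase that ends receptor signalling, rose by 1.01 in DMM mice, and the adaptor Dok3 by 1.72 in naive mice. Inpp5d, named as the phosphatase that Fcgr2b recruits, had log2 fold changes of 1.53 in DMM (adjusted p = 0.0228) and 1.23 in naive mice (adjusted p = 0.0954). The naive count was 0 without drug-treated mouse 3, 1 without drug-treated mouse 1 and 2 without vehicle mouse 1, 2 or 5. The DMM count was 2 against vehicle mice 63 and 64 alone.

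**Figure D5:**
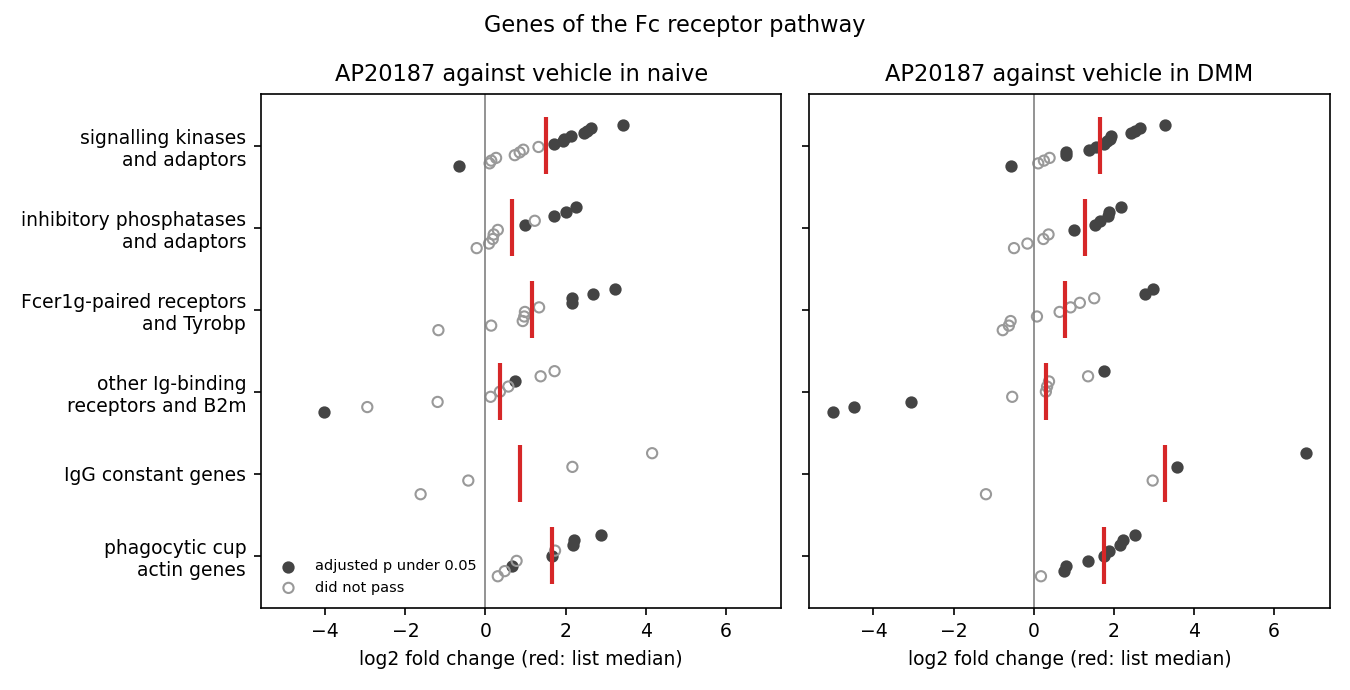
log2 fold change of AP20187 against vehicle for each tested gene of 6 lists around the Fc receptors, in naive (left) and DMM mice (right), filled where the adjusted p was under 0.05, with a red line at the list median. Medians of the signalling list are 1.52 and 1.66, and the B-cell genes Fcer2a and Fcmr lie far to the left in the list of other immunoglobulin-binding receptors.

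Of 10 genes for other receptors that use the gamma chain, the related adaptor Tyrobp included, 2 rose in DMM mice and 4 in naive mice. Over all genes 11.3% passed as higher in DMM and 8.61% in naive mice, so the DMM count of 2 is little above that share. Clec4e, a C-type lectin that signals through Fcer1g, rose from 10 ± 9.74 to 79.4 ± 20.6 CPM in DMM mice (n = 5 each, log2 fold change 2.98, adjusted p = 0.00121) and from 5.13 ± 1.49 to 48.5 ± 23.2 in naive mice (3.24, adjusted p = 0.00176). Clec4n, another such lectin, rose by 2.77 and 2.68. In naive mice Tyrobp rose by 2.16 (adjusted p = 0.0224) and Fcer1a, the IgE-binding chain, by 2.17 (adjusted p = 0.0268). The DMM count was 5 without vehicle mouse 64, and the naive count was 2 without drug-treated mouse 1 or 3 or vehicle mouse 1, 2 or 5. Against vehicle mice 63 and 64 alone, 1 of the 10 rose and 1 fell in DMM mice, and the call of Clec4n was lost.

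Of 13 genes in the list of other immunoglobulin-binding receptors and B2m, 9 were tested. In DMM mice 3 fell and 1 rose, and in naive mice 1 fell and 1 rose. Fcer2a, the low-affinity IgE receptor of B cells, fell by 5.02 in DMM (adjusted p = 0.00298) and by 4.03 in naive mice (adjusted p = 0.0228, and 0.0696 without drug-treated mouse 3). Fcmr, the IgM receptor, fell by 4.49 and Fcrla, a B-cell Fc receptor-like protein, by 3.07 in DMM mice. All 3 are known from B cells, the cell type whose 5 markers fell, and the part of B cells in these values was not tested. The 2 that rose were Ms4a2, a chain of the mast cell IgE receptor, by 1.76 in DMM mice (adjusted p = 0.0447) and Trim21, a cytosolic antibody receptor, by 0.73 in naive mice (adjusted p = 0.0471). Each of these 2 calls was lost without single libraries, 5 for Ms4a2 and 7 for Trim21.

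The ligands themselves, as IgG heavy chain constant genes, were low and uneven. Of 4 genes, Ighg1 and Ighg3 rose with the drug in DMM mice and 0 passed in naive mice. Ighg1 was at 1.36 ± 1.37 CPM in DMM with vehicle and 16.2 ± 10.1 with AP20187 (n = 5 each), ranging from 0.41 to 28.1 CPM among the drug-treated mice. The log2 fold change was 3.57 (adjusted p = 0.0161). In naive mice Ighg1 was at 0.89 ± 0.52 CPM with vehicle (n = 5) and 0.29 ± 0.19 with AP20187 (n = 4), a log2 fold change of -1.62 (adjusted p = 0.314). With the drug, Ighg1 was higher in DMM than in naive mice by 5.80 (adjusted p = 0.0416), though the interaction did not pass (5.19, adjusted p = 0.24). Ighg3 ran from 0.15 to 44.5 CPM in DMM mice with AP20187, against 0 to 0.32 CPM with vehicle (log2 fold change 6.80, adjusted p = 0.0122). With single libraries left out the value ran from 4.68 to 7.99, the lowest without drug-treated mouse 59 and the highest without vehicle mouse 63. Neither call held with limma voom or against vehicle mice 63 and 64 alone.

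The actin machinery of the phagocytic cup rose in 8 of 9 genes in DMM mice and 5 of 9 in naive mice, with median log2 fold changes of 1.75 and 1.66. Rac2, the small GTPase of blood cells, rose by 2.52 (adjusted p = 0.00637) and 2.88 (adjusted p = 0.00674). The motor protein Myo1f rose by 2.22 and 2.18. In DMM mice the actin-binding protein Coro1a rose by 1.35 and Wipf1, a partner of the Was protein, by 0.77. In naive mice Was rose by 2.20 and Dock2, which activates Rac, by 1.66. The naive count was 1 without drug-treated mouse 1 or 3 or vehicle mouse 1 or 2, and 3 without vehicle mouse 5. The DMM count was 0 against vehicle mice 63 and 64 alone. Among the DMM calls named from these lists, those of Syk, Prkcd, Inpp5d and Ms4a2 were lost without drug-treated mouse 58 or vehicle mouse 33. Of the naive calls named, those of Fgr, Vav1, Lcp2, Clec4e, Clec4n and Rac2 held without each library in turn, and every other was lost without drug-treated mouse 3. Vehicle mouse 64 moved several DMM values by over 1.5 times in fold. Without it the log2 fold changes were 3.01 for Dok2, 2.61 for Ptpn6, 3.37 for Fgr, 3.18 for Vav1, 2.16 for Syk, 3.71 for Clec4e, 3.28 for Rac2, 2.88 for Myo1f and 4.20 for Ighg1. Those of Fcmr, Fcrla and Fcer2a were -3.66, -2.26 and -4.38. Without drug-treated mouse 59 Fcmr was at -5.33, without drug-treated mouse 61 Fcer2a was at -5.82, and in naive mice Fcer2a was at -4.76 without drug-treated mouse 1. Of the genes of these 6 lists, 0 passed edgeR's test of DMM against naive with vehicle or the interaction, and Ighg1 alone passed with AP20187.

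Across the 19 libraries the genes were compared by the Pearson correlation of their log2 CPM, as a description, since the libraries share groups and cell makeup. Fcgr3 and Fcer1g were most alike (r = 0.984), then Fcgr3 and Fcgr4 (0.981), and Fcgr4 and Fcgrt least (0.714). After the group means were subtracted, Fcgr3 and Fcer1g stood at 0.953 and Fcgr1 and Fcgr2b at 0.931. Fcgrt was then nearest to Fcgr2b (0.920).

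The genes with the most similar patterns, among genes whose mean reached 1 CPM in some group, differed between the 6. For Fcgr1 they were P2ry6 (r = 0.968), C1qc (0.965) and C1qb (0.964), the last 2 being complement genes of macrophages. Fcgr3 was nearest to Litaf, Lgals3 (both 0.988) and Tcn2 (0.987). Next to Fcgr4 stood Sp140 (0.989), Irak3 and Trim30a (both 0.986). Cd52, Clec4a2 and Hcls1 were nearest to Fcer1g, each at 0.993, and the adaptor Tyrobp led once group means were subtracted (0.987). Fcgr2b was nearest to Steap4 (0.984), Ms4a6d and H6pd (both 0.976). Fcgrt had Islr (0.985), Pttg1ip (0.98) and Rcn3 (0.974), and Islr and Rcn3 also led after subtraction of group means, at 0.982 and 0.979. Islr and Rcn3 are best known from fibroblasts, and Islr was at 174 ± 110 CPM in naive mice with vehicle and 273 ± 111 with AP20187.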

How the data were processed

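For 36682 genes in 19 libraries the authors deposited raw counts and FPKM, which divide fragments by depth and by the length of the gene. A further deposited count table gave equal counts for all 6 genes. Libraries were stranded poly(A) RNA, per the labels' protocols. The submitters' processing notes name cutadapt, HISAT2, StringTie and GRCm39, without versions. Whether counting used strand is not given in the sources used here.

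Counts were tested in edgeR 4.0.16 (R 4.3.3, limma 3.58.1, DESeq2 1.42.0): TMM, filterByExpr with a minimum count of 10, 22778 genes, and 1 model of 4 group means with 15 residual degrees of freedom. Tests were two-sided, with Benjamini-Hochberg adjustment across the tested genes. Correlations used a prior count of 2. Intervals are for the tested log2 fold change or difference and rest on the spread between mice of these groups. Their standard errors were derived from the test, as the absolute log2 fold change over the square root of the F statistic. Reads are not independent molecules. Library totals of 60984830 to 74691396 put a count of 3 at 0.04 to 0.05 CPM.

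The genes, lists and tests were chosen with earlier results of these data known. By rule, named list genes are up to 4 per comparison with the smallest adjusted p, and per gene the 3 most similar genes; 1 gene named by this rule is not reported here. Syk, Inpp5d and B2m were named for their roles. Csf1r, Ly6g, Ccr2, Prkcd and the other neutrophil markers were named with values in view. Alternatives covered scaling, filters, test, FPKM, samples in the fit, pairing, vehicle number series and single libraries.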

Additional observations from a re-analysis of the deposited data

Results flagged for a closer look

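Among 24 sets of values (6 genes in 4 groups), 3 held a mouse far from the others of its group by Dixon's criterion, which chance meets in about 1 in 20 groups. Fcgr1 was at 20.6 CPM in naive mouse 3 with AP20187, the highest of 4, and at 8.28 CPM in naive mouse 3 with vehicle, the highest of 5. Fcgrt was at 100.3 CPM in naive mouse 3 with AP20187, the highest of 4. The 2 mice numbered 3 are in different groups, and the labels do not say that a shared number links them.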

How the results depend on the processing

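The counts of genes called stayed within 1.5 times of the reported value in 116 recalculations and left it in 2. With mice 63 and 64 as the only DMM vehicle mice, 0 of the 6 genes passed for AP20187 in DMM mice and 1 passed for DMM against naive with vehicle. With single libraries left out, the count was 3 to 5 in DMM mice (14.2% to 34% of all genes) and 4 to 5 in naive mice (4.24% to 14.7%), and 0 for both surgery comparisons and the interaction. Of the single-gene values, 650 kept direction and call, 13 lost and 8 gained a call, and 37 changed sign. The cause was not tested. Apart from Fcgrt in DMM mice against mice 63 and 64 (-0.137), every change of sign was in a surgery comparison or the interaction, where no gene had passed.

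For DMM against naive with vehicle, mice 32 to 34 only gave -0.155 (Fcgr1), -0.449 (Fcgr3), -0.395 (Fcer1g), -0.511 (Fcgr2b) and -0.419 (Fcgrt), and limma voom gave -0.0799 for Fcgr2b. For the interaction, limma voom gave 0.188 (Fcgr3), 0.272 (Fcer1g) and 0.214 (Fcgrt). Mice 32 to 34 only gave 0.623 (Fcgr3), 0.335 (Fcgr4), 0.608 (Fcer1g) and 0.604 (Fcgrt), and mice 63 and 64 only gave -0.65 for Fcgr2b. FPKM with a pseudocount of 1 gave 0.0311 for Fcgr4, filtered or not. Without DMM vehicle 64 and naive vehicle 3, a choice made after seeing the data, Fcgrt was 0.0707. With single libraries left out, DMM against naive with vehicle ran from -0.185 to 0.605 for Fcgr2b and from -0.148 to 0.566 for Fcgrt. With AP20187 it ran from -0.574 to 0.0389 (Fcgr1), -0.058 to 0.459 (Fcer1g) and -0.0994 to 0.416 (Fcgrt). The interaction ran from -0.926 to 0.165 (Fcgr3), -0.808 to 0.121 (Fcgr4), -1.01 to 0.0776 (Fcer1g), -0.21 to 0.58 (Fcgr2b) and -0.404 to 0.333 (Fcgrt).

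Naive mice of both groups share the numbers 1, 3, 4 and 5. Deviations of same-numbered mice correlated at 0.0235, 0.301, -0.0822 and 0.183 in that order, and those of unlike-numbered mice at -0.262 to 0.199. With so few pairs these values cannot exclude pairing. The numbers were not taken as pairs because the labels do not link them. With a replicate block 5 genes passed, as without it, where 11.5% of all genes did, while the naive calls of Fcer2a (adjusted p = 0.0542), Trim21 (0.0659) and Wipf1 (0.0778) were lost. Each of the 6 genes had at least 88 counts in every library.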
